A study of Mus musculus with 7 samples.

Results

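The genes described here are 10 heat shock proteins and chaperonins: Hspe1, Hspd1, Hspa8, Hspa5, Hspa1b, Hspb1, Dnajb1, Hsp90aa1, Hsp90ab1 and Hsph1. They were chosen by name, with earlier results of the same arrays known, and among them the Hspe1 probe was chosen for comparison with that of its partner Hspd1. A gene was read through the array probes whose GenBank or RefSeq accession leads to its symbol in the RefSeq gene table. Of the 10 genes, 8 had a probe, each had exactly 1, and each of the 8 probes carried the scanner's good call, meaning a spot above its background, on all 7 arrays. Hspa8, the constitutive cytosolic HSP70, and Hspa1b, one of the stress-inducible HSP70 genes, had no probe by this rule and were not analysed here. The array held 34967 gene probes, of which 14763 were named, for 13971 symbols.

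The samples were mouse mammary glands kept in organ culture, in which whole glands of 4-week-old females grow in hormones and then regress, and in which the carcinogen DMBA (7,12-dimethylbenz[a]anthracene) gives rise to mammary alveolar lesions. RNA of each group was hybridised to 1 single-colour CodeLink array, and there were 7 groups of 1 array. The study's question for the receptor knockouts was how loss of estrogen receptor α or β changes expression in DMBA-treated glands.

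The αERKO group was labelled as a knockout of estrogen receptor α and the βERKO group as one of estrogen receptor β, both after 24 days of culture. By the paper's account, the 2 knockout models were first made on a C57BL6/129SV background. The group called WT below was wild-type C57 glands cultured for 24 days with DMBA. Wild-type C57 glands without DMBA were taken at 10 days, at the end of the growth phase, and at 24 days, after regression. BALB/c glands were cultured for 24 days without or with vitamin D5, a vitamin D compound. DMBA was given at 2 µg/ml for 24 h on day 3. Sample titles name it for the WT group only, but the study describes the αERKO and βERKO glands as carcinogen-treated too, and for BALB/c glands it rests on the shared protocol. Donors of the WT, αERKO and βERKO glands were pretreated with EGF and progesterone for 5 days, and the labels' protocol also gives estrogen and progesterone for 9 days, without saying which the other groups received. In culture the glands had insulin, prolactin, aldosterone and hydrocortisone for 10 days and insulin alone for 14 days. The glands of 5 mice were pooled for each of WT, αERKO and βERKO. The knockouts differed from WT in receptor and, by the origin of the models, may have differed in strain background. The paper reports lesions in the WT and βERKO glands and none in the αERKO glands. In comparisons of αERKO, loss of the receptor and absence of lesions therefore cannot be told apart.

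With 1 array per group no test was possible, and no p-value is given. In place of a replicate error, the text gives for each pair of arrays the SD of the log2 ratio among probes that share an accession, which ranged from 0.21 to 0.66 over the 21 pairs. This SD covers differences between probes and spots, not differences between mice or cultures.

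Heat shock proteins are molecular chaperones, which bind unfolded or partly folded proteins and let them fold, keep them soluble or hand them to degradation. In mitochondria the HSP60 chaperonin, made from Hspd1, forms a barrel that is closed by a lid of HSP10, made from Hspe1, and folds imported proteins. In the cytosol HSP70, its J-domain partners and HSP90 act in sequence, and unliganded estrogen receptors, like other steroid receptors, are held by HSP90 complexes.

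Hspe1 and Hspd1 lie head to head and share a bidirectional promoter, which is why the sequence between them is printed first. The RefSeq promoter table (GRCm38.p6) holds windows from 250 bases before to 50 bases after a start site for 7 of the 10 genes. Hspa8, Hsp90aa1 and Hsp90ab1 have no entry there. The 215 bases between the Hspd1 start and the Hspe1 start, chr1:55087933-55088147, are given on the plus strand, which is that of Hspe1, and capitals mark a heat shock element:

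Hspe1 and Hspd1: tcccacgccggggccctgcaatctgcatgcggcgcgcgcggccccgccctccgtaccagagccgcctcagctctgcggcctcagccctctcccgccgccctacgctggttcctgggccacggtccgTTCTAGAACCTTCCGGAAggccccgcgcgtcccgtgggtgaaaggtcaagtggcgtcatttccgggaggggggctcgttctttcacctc

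Heat shock elements, the sites of heat shock factors, are repeats of GAA in alternating direction. The 3-unit form was searched as GAA, any 2 bases, TTC, any 2 bases, GAA, and for the other strand as the same pattern starting with TTC. The 18 capital bases hold 2 overlapping 3-unit matches, at -89 to -72 from the Hspe1 start and -144 to -127 from the Hspd1 start, because the windows of both genes cover the same stretch. A 3-unit match occurs in 0.603% of the 32851 RefSeq windows. The window of a second Hspd1 start held none.

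The other windows with a match are shown for the genes whose values are described below, each stretch 5′ to 3′ on the strand of its gene. For Hspb1, on the plus strand at chr5:135887789-135887838, capitals mark GAANNTTC, which occurs in 7.86% of windows. For Hsph1, on the minus strand at chr5:149636337-149636386, capitals mark TTCNNGAA, which occurs in 8.52% of windows. For Hspa5, on the plus strand at chr2:34772000-34772059, capitals mark the endoplasmic reticulum stress response element, searched as CCAAT, any 9 bases, CCACG and as its reverse complement on the other strand, which occurs in 0.119% of windows.

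Hspb1: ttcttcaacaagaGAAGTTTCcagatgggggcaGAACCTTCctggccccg
Hsph1: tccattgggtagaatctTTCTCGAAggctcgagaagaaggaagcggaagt
Hspa5: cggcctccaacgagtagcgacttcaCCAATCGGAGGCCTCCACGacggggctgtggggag

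Both Hsph1 windows also held a 3-unit match just after the start, so Hspe1, Hspd1 and Hsph1 were the 3 members with one. Hspa1b, which had no probe, held GAANNTTC at -104. Neither window of Dnajb1 held any of these motifs. A match is a stretch of letters and not a measured binding site.

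**Figure D1:**
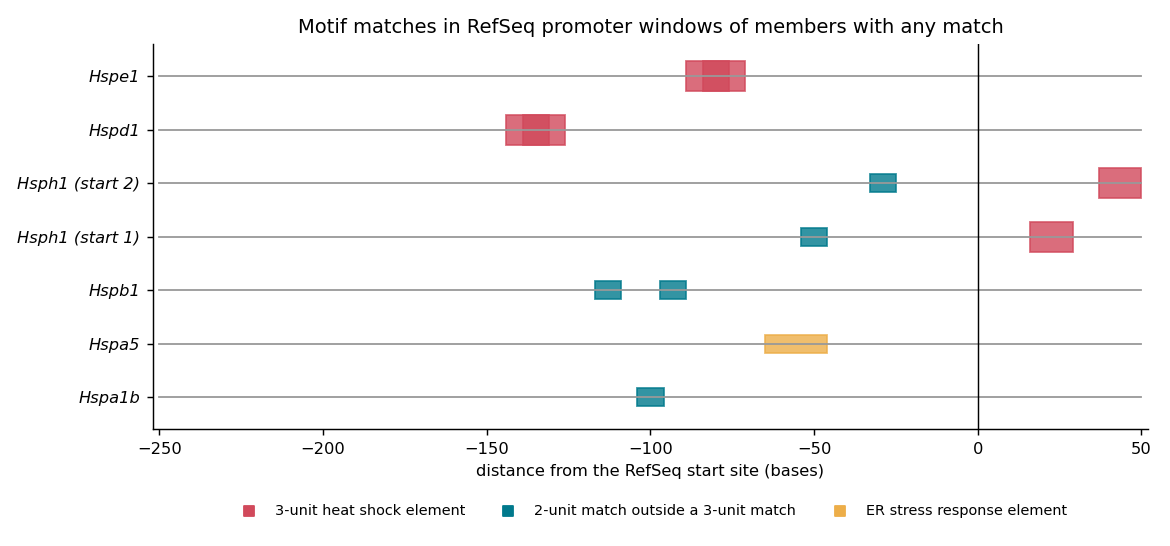
Positions of motif matches in the RefSeq promoter windows of members with any match; the horizontal axis is the distance from the start site in bases and each grey line is 1 window of 1 start site. The red 3-unit heat shock element lies at -89 to -72 from the Hspe1 start and, as the same stretch of DNA, at -144 to -127 from the Hspd1 start.

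All levels below are log2 of a probe's intensity over the median intensity of the gene probes on its array, so a level is read across arrays for 1 probe and never between probes. Values are listed in the order αERKO, the array labelled βERKO, WT with DMBA, WT at 10 days, WT at 24 days, BALB/c, and BALB/c with vitamin D5. The arrays held good calls at 68.4% to 74.2% of gene probes and median intensities of 39.1 to 53.0. The labels of the knockouts were checked on the receptors first. The Esr2 probe, for estrogen receptor β, was called good on the array labelled βERKO (0.87) and on WT at 24 days (-0.55) only, so it went against the βERKO label, and the arrays are named as labelled throughout. The Esr1 probe, for estrogen receptor α, was called good on WT with DMBA (-1.02) and BALB/c with vitamin D5 (-0.74) only. Where these probes lie relative to the deleted exons is not given in the sources used here, and a probe outside the deleted part checks nothing.

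The tissue markers also set the αERKO array apart. All 11 measured skeletal muscle markers were good on it, with a summed scaled intensity of 2496 against 8.91 to 52.4 on the other 6 arrays, where 5 to 7 were good and Myh4 and Actn3 were never good. Of 10 measured mammary epithelial markers 9 or 10 were good on every array, and their summed scaled intensity was 457 on αERKO, 681 on WT with DMBA, 973 on the array labelled βERKO and 1283 to 1648 on the remaining 4. In RNA of whole glands, fewer cells of a type and less RNA per cell cannot be told apart.

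Hspe1 was the member with the widest range of levels. Its probe, GE42517, read 1.60, 2.23, 7.55, 7.78, 8.02, 7.69 and 7.78. The intensities before scaling were 119, 199, 9623, 10250, 11691, 10415 and 11665. Both arrays labelled as knockouts were low and the 5 wild-type arrays lay together within 0.48. Compared with WT, Hspe1 was 61.4-fold lower on αERKO (log2 ratio -5.94, SD 0.58) and 39.7-fold lower on the array labelled βERKO (-5.31, SD 0.37). In the order of levels the neighbouring wild-type arrays did not differ beyond the SD of their ratio, whereas the step from αERKO to the array labelled βERKO (0.63, SD 0.55) and the step from there to WT (5.31) did. The first of these steps was within the SD under the 75th percentile, quantile normalisation, cyclic loess and normexp. Both low spots carried the good call, so these are measured ratios of the signal of 1 probe and not bounds. Both arrays also had a strain background that no wild-type array had, so receptor and strain cannot be told apart. The probe's sequence was not available, and its match to that background was not checked.

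Hspd1, which encodes the HSP60 barrel, did not share this pattern. Its probe, GE32901, read 3.85, 5.00, 4.76, 4.92, 5.34, 4.45 and 4.81. The αERKO array was lowest, WT at 24 days highest, and the array labelled βERKO lay among the wild-type arrays. Hspd1 on αERKO was 1.89-fold below WT (-0.92), short of 2-fold, and differed by 0.24 between the array labelled βERKO and WT, within the SD of 0.37.

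The difference between the Hspe1 and the Hspd1 level within each array, which has meaning only across arrays, was -2.24, -2.77, 2.78, 2.86, 2.68, 3.24 and 2.97. It lay within a narrow band on the 5 wild-type arrays and was negative on both arrays labelled as knockouts. The log2 ratio of Hspe1 to WT was thus 5.02 units lower than that of Hspd1 on αERKO and 5.55 units lower on the array labelled βERKO. In the comparisons among wild-type arrays the same difference between the ratios was small, at 0.10 for DMBA, -0.18 for 24 against 10 days and -0.27 for vitamin D5. The pair was chosen for its difference in response, so these values are a description.

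**Figure D2:**
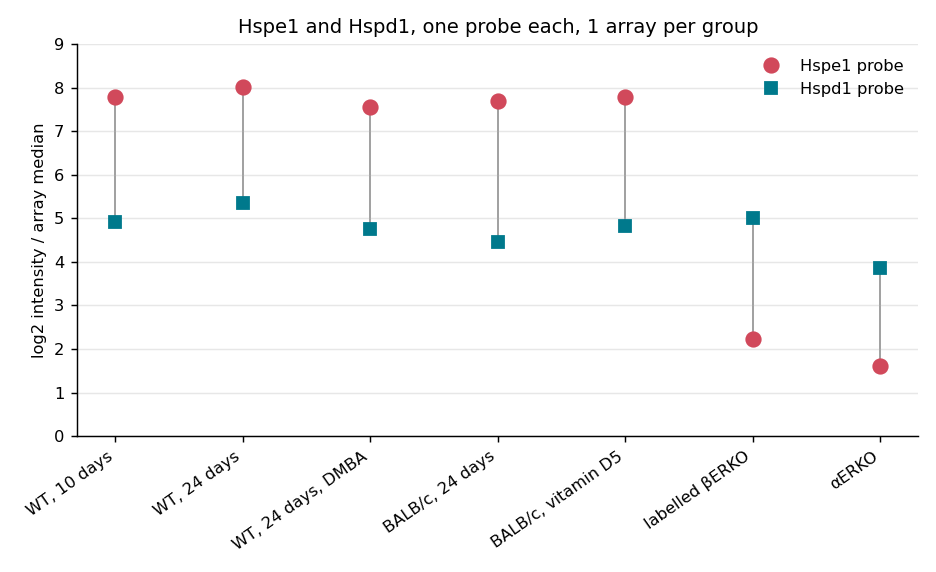
Level of the Hspe1 probe (circles) and the Hspd1 probe (squares) on each of the 7 arrays, 1 array per group; the vertical axis is log2 intensity over the array median, and grey lines join the probes of one array. The heights of the 2 symbols are comparable only across arrays: Hspe1 falls from 7.55 or more on the wild-type arrays to 2.23 on the array labelled βERKO and 1.60 on αERKO, while Hspd1 stays between 3.85 and 5.34.

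Few probes behaved like that of Hspe1 among those good on all 7 arrays. This filter leaves out any probe that was not called good on an array labelled as a knockout. Of 18695 probes good on all 7 arrays, 3 (0.016%) had both arrays labelled as knockouts more than 4 log2 units below the lowest wild-type array, a distance chosen after the values were seen. They were Hspe1, Esrp1, an epithelial splicing regulator, and GE33587, which has no symbol here. The Esrp1 probe read 0.83, 1.30, 5.74, 6.74, 6.34, 6.79 and 6.91. The GE33587 probe read 2.37, 2.57, 8.27, 8.56, 8.81, 8.92 and 8.71.

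By Pearson's r over the 7 arrays, among 1007 probes that were good on at least 5 arrays and spanned at least 3 log2 units, the genes most like Hspe1 were Esrp1 (0.991), Cuedc1 (0.990), Cptp (0.985), Guk1 (0.979) and Scoc (0.975). With 7 arrays of which 2 are far below the rest, such an r mostly records that separation. For Hspd1, among 6479 probes spanning at least 1 log2 unit, they were Trim33 (0.998), Wls (0.998), Cct2 (0.997), Sf1 (0.996) and Cct7 (0.996). Cct2 and Cct7 encode subunits of TRiC, the cytosolic chaperonin. The r of the other members with Hspd1 was 0.51 for Hspe1 and 0.73 (Hsp90ab1) to 0.98 (Hspa5 and Hsph1) for the rest, over arrays that share the same depth and scaling.

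Among the genes next to the pair on chromosome 1, Mob4, which follows Hspe1 and was good on all 7 arrays, had log2 ratios to WT of -0.47 on αERKO and 0.32 on the array labelled βERKO. Boll, also good on all 7, had 0.56 and -0.04. Sf3b1, which encodes a subunit of the spliceosome and lies on the Hspd1 side, was good on 6 arrays. Its αERKO spot was not above background, which puts the level there at least 5.12-fold below WT, and its log2 ratio was -1.67 on the array labelled βERKO. Its levels on those arrays, -1.54 and -0.78, were below all 5 wild-type arrays (0.34 to 1.13), the same direction as Hspe1. Coq10b, between Sf3b1 and Hspd1, was not called good on any array.

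On the array labelled βERKO the cytosolic and endoplasmic reticulum members lay within the range of the wild-type arrays, as Hspd1 did. Dnajb1 (0.87), Hsp90aa1 (0.77) and Hsph1 (0.375) were nevertheless above WT with DMBA by more than the SD of 0.368. Hspa5 encodes BiP, the HSP70 of the endoplasmic reticulum, and its probe, GE38149, read 4.65, 5.89, 5.69, 5.58, 6.25, 5.21 and 5.60. It was lowest on αERKO, although the gap to the next array, BALB/c, was within the SD. Hspb1, the small heat shock protein HSP27 that holds unfolded proteins without ATP, gave 5.84, 7.89, 7.52, 7.85, 8.31, 7.38 and 7.46 on its probe GE36662. Here αERKO stood 1.55 below the lowest other array, against an SD of 0.57.

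Dnajb1, the stress-inducible J-domain partner of HSP70, gave 2.02, 3.97, 3.10, 3.66, 4.36, 3.29 and 3.83 on probe GE37255. WT with DMBA was the next lowest array after αERKO, 1.08 above it. Hsph1, the HSP110 exchange factor of HSP70, gave -1.005, 0.45, 0.07, 0.39, 1.14, -0.02 and 0.33 on GE36660. This was the dimmest of the probes, with intensities from 19.5 to 99, and αERKO lay 0.99 below the next array.

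The HSP90 genes differed from each other in range. Hsp90aa1, the stress-inducible cytosolic HSP90, gave 5.49, 7.24, 6.47, 7.19, 8.04, 7.07 and 7.11 on GE35572. Its lowest arrays were αERKO and then WT with DMBA, each apart from the next by more than the SD, and its highest was WT at 24 days by 0.80. Hsp90ab1, the constitutive cytosolic HSP90, gave 7.74, 8.19, 7.83, 8.33, 8.54, 8.31 and 8.32 on GE34597. No pair of neighbouring arrays in its order differed beyond the SD of their ratio.

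All 8 members were lowest on αERKO and highest on WT at 24 days without DMBA under median scaling. For Hsp90ab1 (0.09) and Hspa5 (0.56) the gap from αERKO to the next array was within the SD. Under the 75th percentile, Hsp90ab1 on αERKO was above WT with DMBA (0.04). Of the 18695 probes good on all arrays, 38.5% were lowest on αERKO, 26.4% highest on WT at 24 days and 16.8% both.

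**Figure D3:**
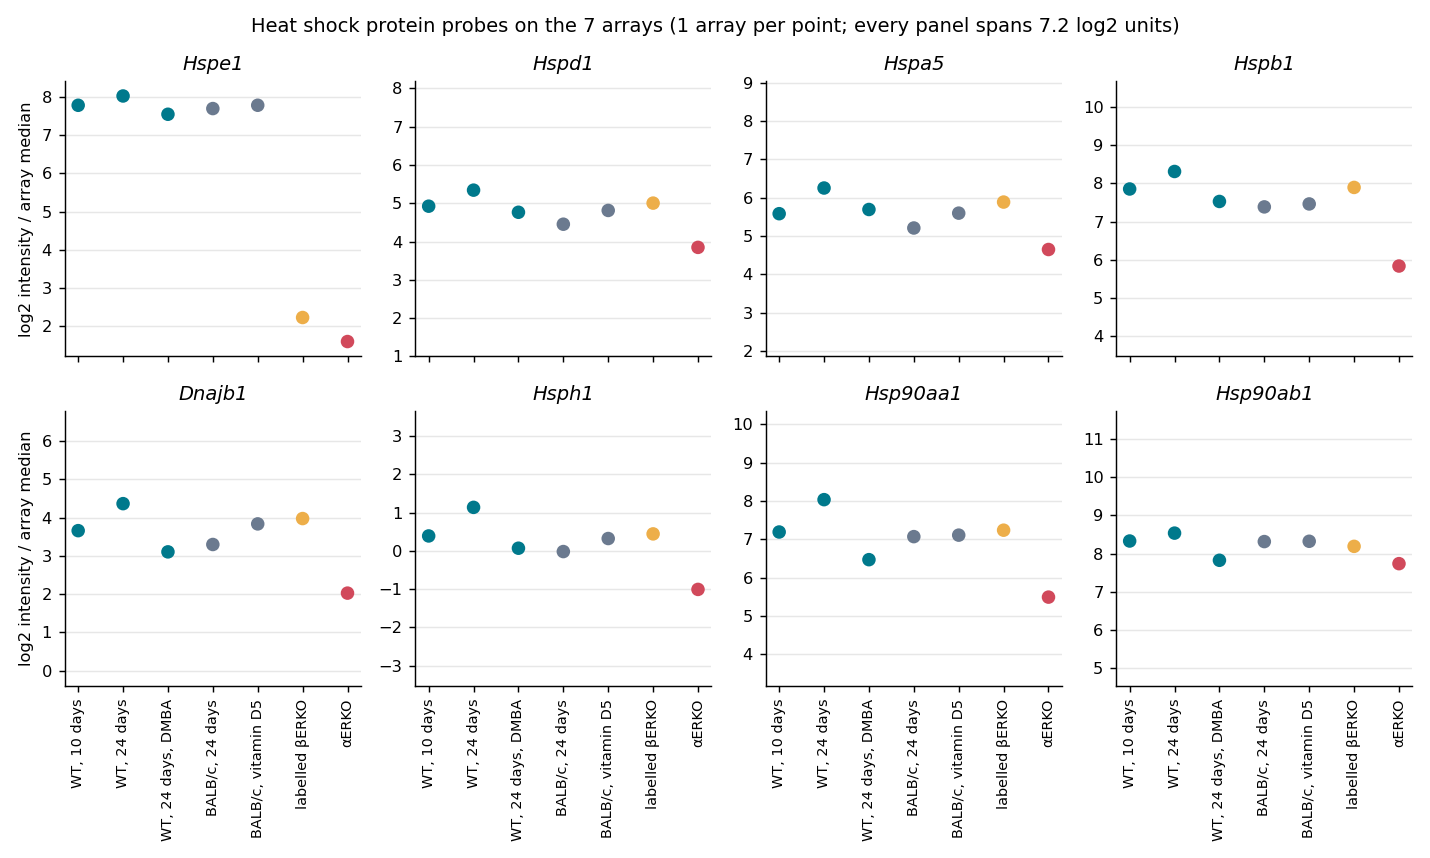
Level of each of the 8 measured members on the 7 arrays, 1 array per point; the vertical axis is log2 intensity over the array median and every panel spans 7.2 log2 units (green, C57; grey, BALB/c; yellow, the array labelled βERKO; red, αERKO). Only the Hspe1 panel shows the array labelled βERKO far below the wild-type arrays, at 2.23 against 7.55 or more.

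Against WT, 5 of 8 members were over 2-fold lower on αERKO and none higher. Of all probes good on both of these arrays, as the members were, 9.65% were over 2-fold lower and 8.1% higher, and when a good spot on either array was enough the shares were 14.1% and 11.7%. They were Hspe1, Hspb1 (-1.69), Dnajb1 (-1.08), Hsph1 (-1.08) and Hspa5 (-1.05). Hsp90aa1 had -0.98 and Hsp90ab1 -0.09, the latter within the SD and of the opposite sign (0.04) when arrays were scaled to their 75th percentile. The median of the members was -1.06 and that of all probes good on both arrays -0.05. The count is sensitive to scaling, because Dnajb1, Hsph1 and Hspa5 lay just beyond 2-fold: it was 2 of 8 under scaling to the 75th percentile, cyclic loess, or normexp with quantile normalisation. Hsph1, with an intensity of only 19.5 on αERKO, had a ratio of -0.42 under normexp, within the SD of 0.58. The muscle markers were high on αERKO, and the summed epithelial markers were 457 against 681 on WT. Of 10 epithelial markers 8 had ratios below 0, and Krt18 (-0.04), Krt19 (0.19) and Cldn4 (0.01) differed little. The part of the muscle or epithelial markers in the members' ratios was not tested.

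On the array labelled βERKO, Hspe1 was the only member over 2-fold lower than on WT, and no member was over 2-fold higher. Of probes good on both arrays 4.32% were lower and 4.08% higher, and of those good on either 8.37% and 6.96%. The other 7 had ratios above 0, from 0.19 for Hspa5 to 0.77 for Hsp90aa1 and 0.87 for Dnajb1. The members' median was 0.37 against 0.11 for all probes good on both arrays, of which 61.4% were above 0. The members' median was 0.15 under normexp and 0.03 under cyclic loess. The sign of Hspa5 turned (-0.06) under quantile normalisation, cyclic loess and normexp. Summed marker intensities on this array and on WT were 973 and 681 for epithelium, 65.0 and 203 for fibroblasts, 11.8 and 32.0 for endothelium and 52.4 and 11.1 for skeletal muscle, and their part was not tested.

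Between αERKO and the array labelled βERKO, 6 of 8 members were over 2-fold lower on αERKO and none was higher. The count was 5 under the 75th percentile, 4 under quantile normalisation and cyclic loess and 3 under normexp. Of probes good on both arrays 13.4% were lower and 8.84% higher, and of those good on either 16.6% and 13.5%. The ratios were -2.05 for Hspb1, -1.95 for Dnajb1, -1.75 for Hsp90aa1, -1.45 for Hsph1, -1.24 for Hspa5 and -1.16 for Hspd1. Hspe1 had -0.63 and Hsp90ab1 -0.45. Under normexp the ratio of Hsph1 was -0.60. The members' median was -1.35 and that of all probes good on both arrays -0.18. Summed markers on αERKO and the array labelled βERKO were 2496 and 52.4 for skeletal muscle, 457 and 973 for epithelium and 401 and 65.0 for fibroblasts, and their part was not tested. These 3 comparisons share their arrays, so their ratios are not independent of each other.

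The comparison for DMBA was made in wild-type C57 glands. Donors of the glands with DMBA had EGF and progesterone, while the pretreatment for those without DMBA is not given. A difference in pretreatment therefore cannot be told apart from DMBA. Comparing 24-day glands with and without DMBA, 3 of 8 members were over 2-fold lower and none was higher. Of probes good on both arrays 4.94% were lower and 6.83% higher, and of those good on either 8.46% and 10.1%. They were Hsp90aa1 (-1.57, SD 0.31), Dnajb1 (-1.26) and Hsph1 (-1.07). The remaining 5 also had ratios below 0 and beyond the SD, from -0.48 for Hspe1 to -0.78 for Hspb1. Under cyclic loess Hspe1 (-0.15), Hspa5 (-0.26) and Hsp90ab1 (-0.28) were within that SD, and under quantile normalisation and normexp Hspe1 was (-0.24). Under normexp Hsph1 was no longer over 2-fold lower (-0.59). The members' median was -0.75 (-0.36 under cyclic loess) against -0.15 for all probes good on both arrays (-0.01), of which 63.1% were below 0. The summed epithelial markers were 681 with DMBA and 1283 without, and the fibroblast markers 203 and 12.4, and their part in this was not tested. WT with DMBA is also the reference of the αERKO and βERKO comparisons.

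From 10 to 24 days without DMBA no member passed 2-fold, while 2.86% of probes good on both arrays were lower and 1.71% higher, and 6.34% and 6.05% of those good on either. All 8 had ratios above 0, as had 60.6% of all probes good on both arrays. The members' median was 0.56 against 0.09 for those probes. The ratios ran from 0.21 for Hsp90ab1 and 0.24 for Hspe1, which were within the SD of 0.24, to 0.75 for Hsph1 and 0.85 for Hsp90aa1. Summed adipocyte markers were 454 at 10 days and 1214 at 24 days, and their part was not tested. WT at 24 days is shared with the DMBA comparison, where it is the reference.

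With vitamin D5 in BALB/c glands no member passed 2-fold, while 1.07% of probes good on both arrays were lower and 1.12% higher, and 7.06% and 5.12% of those good on either. The median was 0.21 against 0.10 for all probes. Dnajb1 (0.54, SD 0.26), Hspa5 (0.39), Hspd1 (0.36) and Hsph1 (0.34) were beyond the SD. Of these, Dnajb1 remained so under every other scaling (0.35 or more). Hspd1 did not under the 75th percentile, quantile normalisation, cyclic loess and normexp (0.20 to 0.23). Hspa5 did not under quantile normalisation (0.23), cyclic loess (0.255, just within the SD of 0.2551) and normexp (0.22). Hsph1 did not under the 75th percentile (0.215) and normexp (0.17). Hspe1 (0.09), Hspb1 (0.08), Hsp90aa1 (0.04) and Hsp90ab1 (0.01) were within it. The signs of these last 4 turned under at least 1 other scaling.

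**Figure D4:**
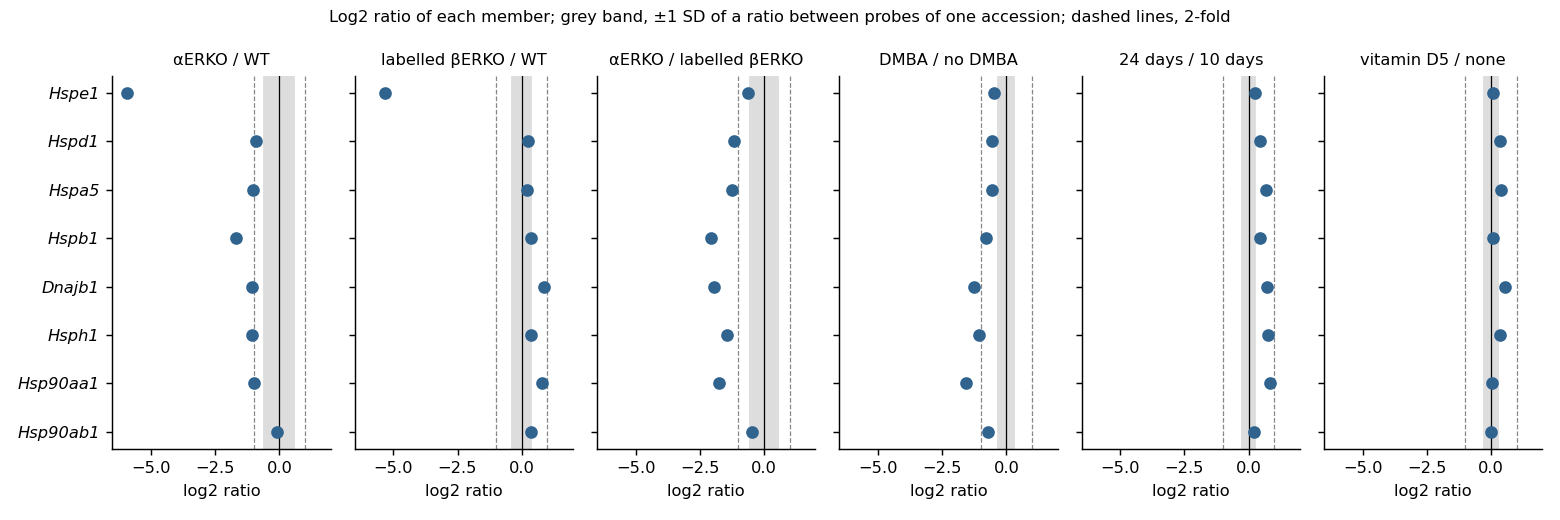
Log2 ratio of each measured member in the 6 comparisons, 1 point per member and comparison; the grey band is ±1 SD of the ratio among probes of one accession and the dashed lines mark 2-fold. Hspe1 lies at -5.94 and -5.31 in the αERKO and labelled βERKO comparisons with WT, and the other 7 members lie between -1.69 and 0.87 there.

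The rest of the chaperone network was described through 8 lists of 97 genes, of which 88 had a probe. On αERKO against WT 14 of 86 genes good on at least 1 array were over 2-fold lower and 7 higher, with a median of -0.47, beside 14.1% lower and 11.7% higher over all probes good on either array. On the array labelled βERKO 3 of 85 were lower and 5 higher, with a median of 0.31, beside 8.37% and 6.96%. Directly compared with the array labelled βERKO, 27 of 85 were lower on αERKO and 4 higher (median -0.69), beside 16.6% and 13.5%. For DMBA 6 of 85 were lower and 2 higher (median -0.42), beside 8.46% and 10.1%. For 24 against 10 days 0 of 85 were lower and 2 higher (0.31), beside 6.34% and 6.05%, and for vitamin D5 3 of 86 and 1 (0.20), beside 7.06% and 5.12%.

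Among cytosolic HSP70 genes, Hspa1a, the stress-inducible neighbour of Hspa1b, gave 2.84, 5.30, 4.33, 5.50, 6.37, 5.41 and 6.11. It was lowest on αERKO, with ratios of -1.49 to WT and of -2.04 between glands with and without DMBA. Hspa1a and Hspa1b are near-identical in sequence, so which of them the probe reads is uncertain.

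Of 18 co-chaperones of HSP90 and HSP70, 3 were over 2-fold lower on αERKO and none higher, with a median of -0.54, beside the 14.1% and 11.7% of all probes. Fkbp5, an HSP90-bound immunophilin whose gene responds to glucocorticoids and progestins, gave -0.31, 0.17, 3.44, 0.33, 2.54, -0.27 and 0.18. It was high only on the C57 arrays at 24 days, with and without DMBA. Ptges3, which encodes the HSP90 co-chaperone p23, was -1.68 on αERKO against WT.

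Of 13 measured J-domain proteins, 2 were over 2-fold lower and 2 higher on αERKO, beside the same 14.1% and 11.7%, the lower ones being Dnajc5 (-1.77) and Dnajc1 (-1.47) and the higher ones Dnajb13 (2.18) and Dnajb3 (1.66). Dnajb13, a J-domain protein of cilia and sperm flagella, was the only one over 2-fold different on the array labelled βERKO, at 2.63.

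The TRiC chaperonin and prefoldin fold actin and tubulin in the cytosol. Of their 12 measured genes, with a median of -0.54 on αERKO, Cct2 alone was over 2-fold lower on αERKO (-1.02). Pfdn6 alone was over 2-fold higher on the array labelled βERKO (1.61). Of all probes good on either array, 14.1% were lower on αERKO and 6.96% higher on the array labelled βERKO. All 12 had ratios below 0 for DMBA (median -0.62), beside 63.1% of all probes good on both arrays (median -0.15). For 24 against 10 days all 12 had ratios above 0 (median 0.40), beside 60.6% of such probes (median 0.09).

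None of the 11 other mitochondrial chaperones and proteases was over 2-fold different on αERKO or the array labelled βERKO against WT, with medians of -0.23 on αERKO and 0.22 on the array labelled βERKO. The value of Hspe1 was thus outside the range of the other mitochondrial genes on both arrays. Of all probes good on either array, 14.1% were over 2-fold lower and 11.7% higher on αERKO, and 8.37% and 6.96% on the array labelled βERKO. Grpel2, a nucleotide exchange factor of mitochondrial HSP70, was -1.31 with DMBA.

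All 16 endoplasmic reticulum chaperones had ratios below 0 on αERKO, 4 of them over 2-fold, with a median of -0.58. Of all probes good on both arrays 53.8% were below 0, and of those good on either 14.1% were over 2-fold lower. The lowest named were Sdf2l1 (-1.55) and the lectin chaperone Canx (-1.52). On the array labelled βERKO their median was -0.06, Dnajb9 was 1.06, and Hyou1, whose spot was not above background on αERKO or on the array labelled βERKO, was at least 3.21-fold and 3.57-fold below WT there.

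The small heat shock proteins were the list with a positive median on αERKO (1.70), and 4 of 7 were over 2-fold higher. Of all probes good on either array 11.7% were over 2-fold higher. Hspb6 (3.15) and Hspb2 (2.78) were the highest good on both arrays, and the ratio of Hspb7 was -2.34. Hspb3 was at least 7.75-fold higher on αERKO, since its spot on WT was not above background. The skeletal muscle markers stood at 2496 on that array, and their part in these values was not tested. On the array labelled βERKO, where the muscle markers summed to 52.4 against 11.1 on WT, Cryab (1.91) and Hspb6 (1.61) were over 2-fold higher and Hspb7 (-1.84) over 2-fold lower.

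Of the heat shock factors, Hsf1, the main activator of the heat shock genes, had no spot above background on αERKO, which places it at least 2.71-fold below WT. Hsf2 was likewise not above background on αERKO, at least 1.13-fold below WT. Hsf4 was over 2-fold higher on αERKO (1.02). None of the 3 passed 2-fold on the array labelled βERKO.

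**Figure D5:**
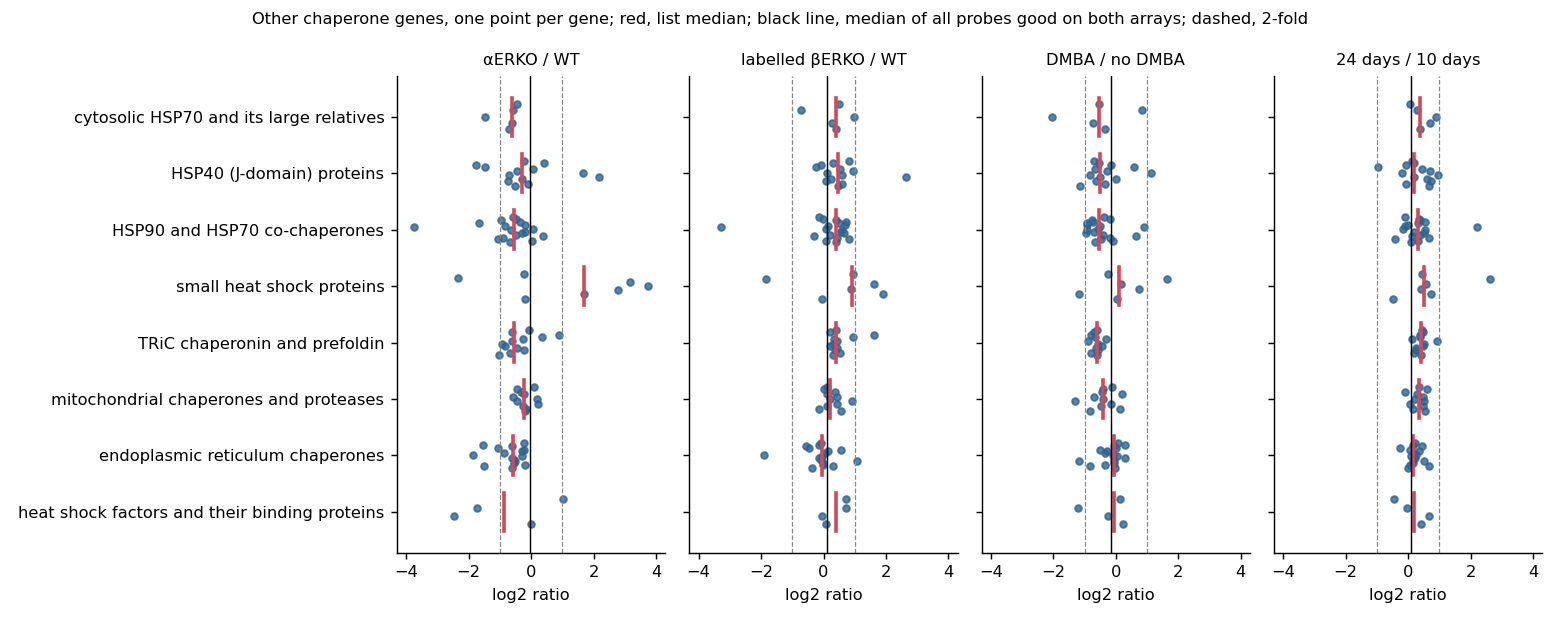
Log2 ratios of the other chaperone genes in 4 comparisons, 1 point per gene with a good spot on either array; red bars are list medians, the black line is the median of all probes good on both arrays and the dashed lines mark 2-fold. The list medians on αERKO lie below the black line except that of the small heat shock proteins, at 1.70.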

How the data were processed

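The authors deposited 1 CodeLink scanner table per array, with spot intensity already background-subtracted (spot mean minus local background median) and a quality call. The scanner tables also hold a normalized intensity, used as an alternative, and a deposited table of the whole series with unnamed lines was not used. Members and gene lists were chosen with earlier results of these data known. Probes were joined by identifier and named through accessions in the RefSeq table. Intensities were divided by the array's median over gene probes, and before log2 a value of 0 or less was replaced by the lowest positive one of that array. A gene was read by its brightest probe, and a call was over 2-fold with a good spot on at least 1 of the arrays. A probe dim on 1 array was given as at least N-fold, against the higher of its own value and the lowest good value there. Named genes were all members, the 2 largest changes each way of each list among probes good on both arrays, and the 5 patterns most like Hspe1 and Hspd1. The SD is computed from the differences between log2 ratios of paired probes sharing an accession. The number of arrays limits precision. Alternatives were the 75th percentile, quantile, cyclic loess, normexp with offset 50, the deposited normalized intensity, a floor at the lowest good value, and thresholds of 1.5-fold and 3-fold. Tools were R 4.3.3, limma 3.58.1, numpy 2.4.6, pandas 2.3.3 and matplotlib 3.10.9. The code was tested on simulated data.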

Additional observations from a re-analysis of the deposited data

Results flagged for a closer look

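For 7 members the ratio to WT was below 0 on αERKO and above 0 on the array labelled βERKO. Of all probes good on both arrays, 53.8% were below 0 on αERKO and 61.4% above 0 on the array labelled βERKO. The share of probes with both signs was not counted. Hspd1, Hspa5, Hspb1 and Hsp90ab1 were within the SD of 0.368 on the array labelled βERKO, and Hsp90ab1 was within that of 0.58 on αERKO. The difference between the ratios was not tested, both contrasts share the WT array, and there was 1 array per group. It was -1.16 for Hspd1 (-0.92 and 0.24), -1.24 for Hspa5 (-1.05 and 0.19), -2.05 for Hspb1 (-1.69 and 0.37) and -1.95 for Dnajb1 (-1.08 and 0.87). It was -1.75 for Hsp90aa1 (-0.98 and 0.77), -0.45 for Hsp90ab1 (-0.09 and 0.36) and -1.45 for Hsph1 (-1.08 and 0.37). The opposite signs did not hold for Hsp90ab1 when arrays were scaled to their 75th percentile (0.04 on αERKO), nor for Hspa5 under quantile normalisation, cyclic loess or normexp (-0.06 on the array labelled βERKO).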

How the results depend on the processing

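No paired analysis was possible because each group had 1 array and the labels give no replicate numbers. Of the counts and the Hspe1 differences, 64 values kept close to the reported one and 10 counts moved. A count was taken as close when it differed by at most 1.5-fold, so that 4 passed as close to 6. An Hspe1 difference was taken as close when it changed by no more than the SD. Some of the 64 could not move. Each member had 1 probe, good on every array, so averaging probes, the floor and requiring good spots on both arrays changed nothing. Scaling to the 75th percentile cancels in the Hspe1 differences. On αERKO against WT the count of 5 members became 2 under the 75th percentile, cyclic loess, normexp and a 3-fold threshold. On the array labelled βERKO it rose from 1 to 3 at 1.5-fold. Between αERKO and the array labelled βERKO it fell from 6 to 3 under normexp and at 3-fold. For DMBA the count of 3 became 0 at 3-fold and 5 at 1.5-fold, and for 24 against 10 days 0 became 4 at 1.5-fold. The cause was not tested beyond the thresholds, which act by construction. Of 336 single ratios recomputed, 18 turned sign, all given above or among the 4 small ones for vitamin D5. By more than the SD of their comparison, 8 ratios changed. Under normexp this held for Hsph1 on αERKO against WT and against the array labelled βERKO, for DMBA and for 24 against 10 days. Under cyclic loess it held for Hspe1, Hspb1, Hsp90aa1 and Hsp90ab1 in the DMBA comparison. The 336 include those under averaged probes and under the floor, which could not change. Scaling moved the median of all probes, from -0.05 to 0.08 on αERKO against WT and from -0.18 to 0.07 between αERKO and the array labelled βERKO (median scaling, cyclic loess). With 1 array per group, spread between mice and cultures is unknown, and Hsph1 is limited by low signal.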
